A study of Mus musculus with 6 samples.

Results

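The Bcl2 family was followed in RNA from mouse blastocysts and ooplasts as the array probes that the files name for 10 genes, 5 anti-apoptotic (Bcl2, Bcl2l1, Bcl2l2, Bcl2l10 and Mcl1) and 5 pro-apoptotic (Bax, Bak1, Bok, Bid and Bcl2l11). These genes had 19 of the 41174 probes on the array, 11 for anti-apoptotic and 8 for pro-apoptotic members. An ooplast is an oocyte from which the chromosomes have been taken, and a blastocyst is an embryo whose inner cell mass is enclosed by trophectoderm. The 6 single-colour (Cy3) Agilent arrays held 2 samples of climacteric blastocysts, 2 of young blastocysts, 1 of climacteric ooplasts and 1 of young ooplasts, all labelled B6C3 F1. Climacteric refers to the end of reproductive life. The labels give no age in numbers and no pool sizes, and do not say how the blastocysts were made. Replicates are called biological in the series' design but no label names an animal, so the p-values reflect how these samples vary, which may be technical.

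Proteins of the Bcl2 family decide whether the outer mitochondrial membrane stays intact. Anti-apoptotic members such as Bcl2, Bcl-xL (the product of Bcl2l1), Bcl-w (Bcl2l2) and Mcl1 bind and hold back the others. The effectors Bax and Bak1 form pores in that membrane, Bok is a related effector, and the BH3-only proteins Bid and Bim (Bcl2l11) sense damage and set the effectors free. Bcl2l10, also called Diva or Boo, has been described in the mouse both as a killer and as a protector, and is counted here with the anti-apoptotic members. Oocytes and early embryos carry maternal transcripts of many of these genes, and Mcl1 is needed in the mouse for the embryo to implant.

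Values are log2 of the processed spot signal minus that array's 75th percentile, so 0 stands for the 75th percentile of the array. That percentile was 1064 and 852 units on the climacteric blastocyst arrays and 721 and 1111 units on the young ones. It was 238 units on the climacteric and 235 units on the young ooplast array. Stage differences are thus relative to each array's own signal level and depend on this scaling. A probe counted as above background on an array where more than 0.5 of its spots were marked well above background. The share of non-control spots so marked was 54.9% to 57.3% on the climacteric blastocyst arrays, 49.9% to 52.7% on the young blastocyst arrays, 42.2% on the climacteric ooplast array and 42.4% on the young ooplast array. Markers went with the labels: the summed scaled signal of 7 trophectoderm genes was 1525 to 1833 in blastocysts, against 6.32 and 6.61 in ooplasts. The sum of 10 oocyte genes was 3.51 to 4.26 in blastocysts, against 4464 and 4633 in ooplasts. The ooplast arrays shared slide 1 with the first replicate of climacteric and of young blastocysts, whose second replicates were on slide 2. The blastocyst arrays correlated with each other at 0.96 to 0.98 and the 2 ooplast arrays at 0.92 over all probes, as a description of the arrays.

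Promoter sequence is shown for 3 members that differed between blastocysts and ooplasts, 1 that was higher (Mcl1), 1 that was lower (Bcl2) and 1 whose probes disagreed (Bcl2l11). The windows are the 250 bases before the RefSeq start (GRCm38.p6, read 5′ to 3′ along the gene). In Mcl1 (chr3:95658471-95658720, plus strand) and Bcl2 (chr1:106714291-106714540, minus strand) capitals mark the GC box GGGCGG on either strand. In Bcl2l11 (chr2:128125788-128126037, plus strand, the first of its annotated starts) capitals mark GTAAACA, the core that FOXO factors are known to bind.
Mcl1: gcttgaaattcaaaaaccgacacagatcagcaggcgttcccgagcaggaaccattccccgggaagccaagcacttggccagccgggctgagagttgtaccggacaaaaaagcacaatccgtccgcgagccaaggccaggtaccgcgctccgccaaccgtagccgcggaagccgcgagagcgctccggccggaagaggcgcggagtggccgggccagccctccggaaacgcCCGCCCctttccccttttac
Bcl2: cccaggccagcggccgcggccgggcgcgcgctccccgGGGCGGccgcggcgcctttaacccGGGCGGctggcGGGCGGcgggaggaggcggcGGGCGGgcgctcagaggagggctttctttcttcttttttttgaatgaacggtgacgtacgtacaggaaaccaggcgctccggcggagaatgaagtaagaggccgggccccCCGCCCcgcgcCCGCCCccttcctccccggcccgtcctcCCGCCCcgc
Bcl2l11: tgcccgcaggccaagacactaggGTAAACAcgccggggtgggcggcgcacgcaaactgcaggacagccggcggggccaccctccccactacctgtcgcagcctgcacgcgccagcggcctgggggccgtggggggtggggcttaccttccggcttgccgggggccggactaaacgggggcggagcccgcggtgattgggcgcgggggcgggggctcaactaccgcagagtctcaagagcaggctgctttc
GTAAACA began 227 bases before the Bcl2l11 start and stood in 1 of the 12 windows of the 9 members with an entry, against 3.17% of the 32851 windows of this length in the table. GGGCGG stood in 8 of the 12 windows, 7 times in that of Bcl2 and 1 time in that of Mcl1, against 32.7% of all windows. These matches describe the letters only, and no factor binding was measured. Bcl2l10 was the member without an entry.

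Between blastocysts and ooplasts the anti-apoptotic members split. Mcl1 and 1 probe of Bcl2l2 were higher in blastocysts, while Bcl2l10, 2 of 3 probes of Bcl2l1 and the only tested probe of Bcl2 were lower. The size of the Bcl2 difference rests on the young ooplast array, and its call was lost with slide as a block. Among pro-apoptotic members, 1 probe each of Bak1 and Bcl2l11 was higher and another probe of Bcl2l11 was lower, while Bax, Bid and Bok did not pass. In all, 16 of 19 member probes were tested, namely those above background throughout at least 1 stage, and 5 were called higher and 5 lower. Of all 20982 probes tested, 73.7% were called in either direction (35.6% higher and 38.2% lower), so a share of 10 in 16 called is no more than the background. The fit was limma across the 20982 probes and 6 arrays with age as a term, with Benjamini-Hochberg adjustment at 0.05. With the brightest tested probe for each gene, 2 anti-apoptotic members were higher, 2 lower and 1 not called (median log2 difference -1.18). On the same rule, 0 pro-apoptotic members were higher, 1 was lower and 4 were not called (median 0.27). Each of these medians is the value of 1 uncalled probe, that of Bcl2l1 (A_51_P299454) and that of Bak1 (A_52_P225207). The median over all tested probes was -0.22, and -0.26 with 1 probe per gene name. All 10 genes had a probe above background on all 4 blastocyst arrays, and all but Bax (9 genes) had one on both ooplast arrays. Since total RNA per sample is not known, less transcript per cell and fewer cells carrying it cannot be told apart.

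**Figure D1:**
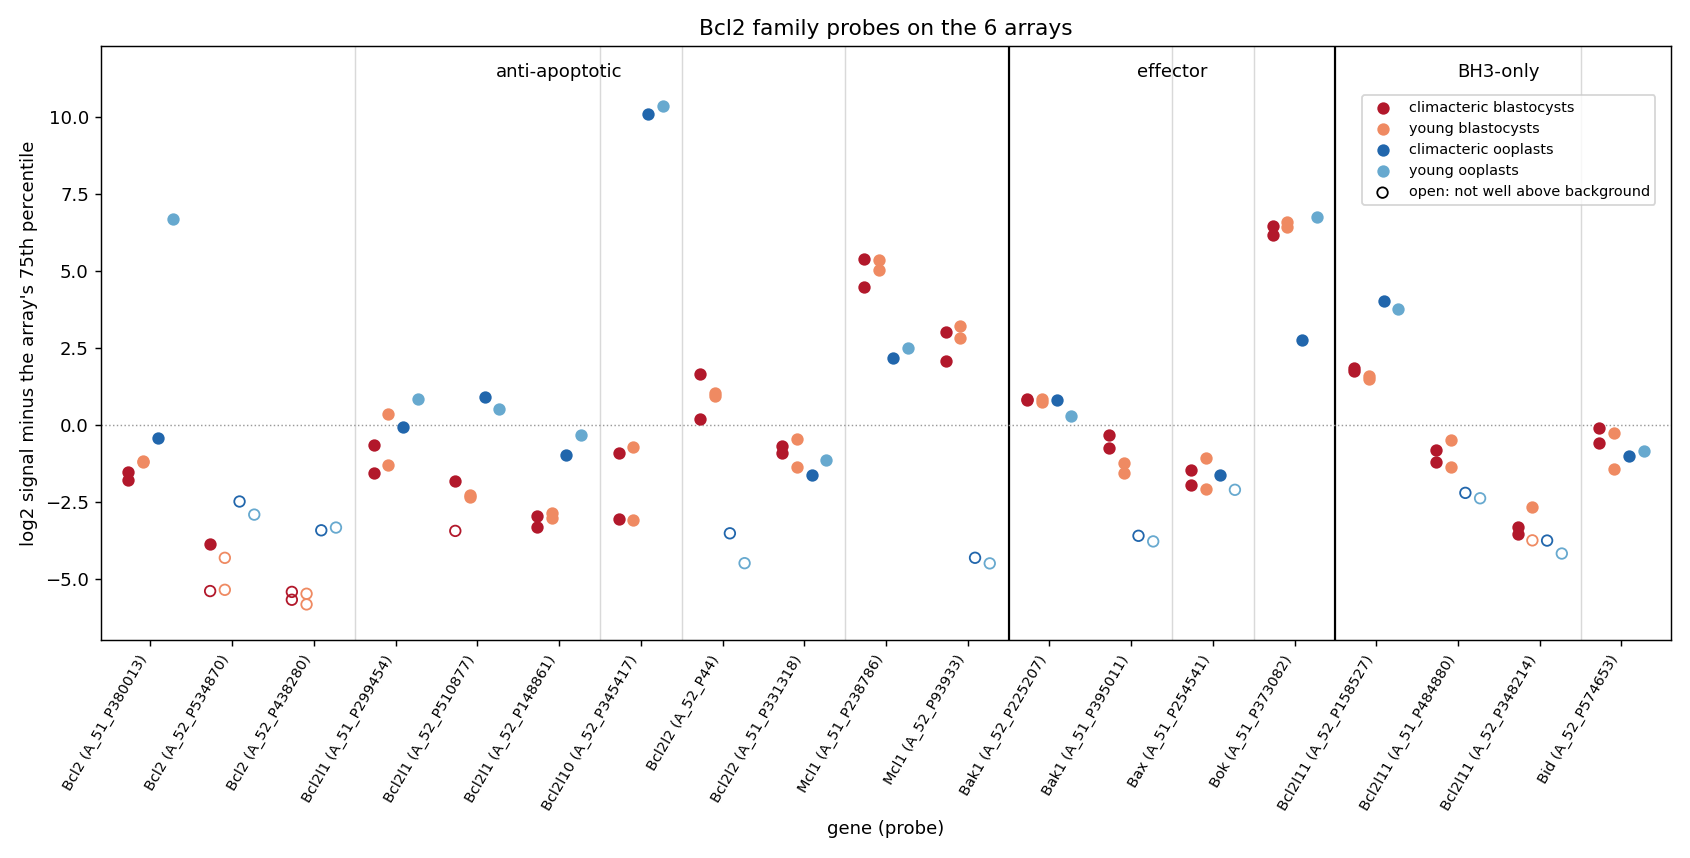
Log2 scaled signal (vertical axis) of the 19 Bcl2 family probes (horizontal axis) on the 6 arrays, coloured by group. Open circles are spots not well above background. Bcl2l10 lies above 10 on both ooplast arrays, and the first Bcl2 probe and Bok differ between the 2 ooplast arrays.

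Bcl2l10 (chr9:75137458-75137517 in mm8) had the largest stage difference of the 16 member probes. Its log2 value was -3.05 and -0.92 in climacteric blastocysts and -3.11 and -0.73 in young blastocysts, against 10.08 in climacteric and 10.36 in young ooplasts. All 4 blastocysts lay far below both ooplasts, and the order among the blastocysts followed the slide, with both replicates on slide 2 higher (2.26 on the log2 scale). The difference was -12.17 ± 0.82 (SE), 4622-fold lower in blastocysts (limma adjusted p = 3.45e-05). It ran from -13.30 (within slide 1) to -11.09 over 18 alternative settings. The lowest signals above background on the slide 1 blastocyst arrays were -3.97 (climacteric) and -3.45 (young). The size of the fold thus rests partly on blastocyst signals near that limit. On the signal scale the probe read 128 and 451 units in climacteric blastocysts, 83.5 and 672 units in young blastocysts, 257870 units in climacteric ooplasts and 310163 units in young ooplasts. Summed oocyte markers were 3.51 and 3.55 in the slide 1 blastocysts and 4.26 and 4.07 in the slide 2 blastocysts, and their part in the slide difference of Bcl2l10 was not tested. By root mean square distance between centred profiles over the 6 arrays, the genes most like Bcl2l10 were Lmo1 (0.633), Slco3a1 (0.782), Nlrp4a (0.867), Nlrp4b (0.883) and Fbxw19 (0.891). These 5 were above background on 0 or 1 of the 4 blastocyst arrays, so their distances and order rest partly on signals below the background call.

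Mcl1, a short-lived protector that holds Bak1 and Bim in check, was higher in blastocysts on both of its probes. The first (A_51_P238786, chr3:95748337-95748396) read 4.49 and 5.39 in climacteric blastocysts and 5.04 and 5.34 in young blastocysts, against 2.17 in climacteric and 2.48 in young ooplasts. The stages did not overlap, and the difference was 2.74 ± 0.33 (SE), 6.68-fold higher in blastocysts (adjusted p = 0.000434). The second probe (A_52_P93933, chr3:95747025-95747084) read 2.06 and 3.01 in climacteric blastocysts and 2.81 and 3.19 in young blastocysts, and was below the background call on both ooplast arrays (measured -4.32 and -4.50). Set against the lowest signal that counts as above background on each ooplast array, its blastocyst mean was at least 30.0-fold higher. This bound holds for the main values and leaves out the spread. The fitted difference of 7.18, taken against the measured ooplast signals, had an adjusted p of 1.65e-05 and became 4.34 with normexp background correction. Like the other probes given as bounds, it entered the test through the blastocyst arrays alone, and its p belongs to the fitted value, not to the bound. The probes thus shared a direction but not a size. The profiles closest to the second probe were those of Cpne8 (0.131), Wdfy1 (0.133), Nucks1 (0.145), Gcnt1 (0.162) and Gja1 (0.171), by the same distance. All 5 were, like the probe itself, above background on 0 ooplast arrays, so these distances and their order rest partly on signals below the background call.

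Bcl2l2, which encodes the protector Bcl-w, gave different answers on its 2 probes. Probe A_52_P44 (chr14:53839123-53839182) read 0.18 and 1.65 in climacteric blastocysts and 1.03 and 0.95 in young blastocysts, and did not reach the background call on the ooplast arrays (measured -3.53 in climacteric and -4.50 in young ooplasts). On the main values its blastocyst mean was at least 8.54-fold higher, a bound that leaves out the spread. Against the measured ooplast signals the fitted difference was 4.97 ± 0.48 (SE; adjusted p = 0.000148), and 2.51 with normexp. Probe A_51_P331318 (chr14:53841952-53842011) read -0.90 and -0.68 in climacteric blastocysts and -0.46 and -1.37 in young blastocysts, against -1.64 in climacteric and -1.16 in young ooplasts. Here the stages overlapped, and the difference of 0.55 had a 95% interval of -0.31 to 1.40.

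Bcl2l1, the gene of Bcl-xL, was lower in blastocysts on 2 of its 3 probes. The probe printed 10 times on each array (A_52_P148861, chr2:152472336-152472395) averaged -2.97 and -3.33 in climacteric blastocysts and -2.87 and -3.04 in young blastocysts, against -0.97 in climacteric and -0.33 in young ooplasts. Its spots varied by an SD of 0.16 to 0.28 within an array, less than the gap between the stages on the scaled values. The difference was -2.40 ± 0.28 (SE; adjusted p = 0.000322). The spot SD does not cover the scaling between arrays, on which the size of this gap depends. Probe A_52_P510877 (chr2:152520890-152520949) read -1.83 and -3.45 in climacteric blastocysts, the second value not above background, and -2.27 and -2.34 in young blastocysts, against 0.90 in climacteric and 0.53 in young ooplasts. That difference was -3.18 ± 0.48 (SE; adjusted p = 0.00118). Before scaling, this probe read 300 and 78.0 units in climacteric blastocysts and 149 and 219 units in young blastocysts. It read 443 units in climacteric and 339 units in young ooplasts, so the stages did not overlap without scaling either. Probe A_51_P299454 (chr2:152521435-152521494) read -1.55 and -0.64 in climacteric blastocysts and 0.35 and -1.32 in young blastocysts, against -0.06 in climacteric and 0.84 in young ooplasts. Before scaling, this probe read 362 and 545 units in climacteric blastocysts and 921 and 446 units in young blastocysts. The unscaled signal was 228 units in climacteric and 421 units in young ooplasts. On the scaled values 1 young blastocyst lay between the ooplasts, and the difference of -1.18 was not called (adjusted p = 0.0817, interval -2.44 to 0.09). It was called without that blastocyst, replicate 1 (-1.52, adjusted p = 0.0276), and with scaling on probes detected on all arrays (-1.39, adjusted p = 0.0474).

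**Figure D2:**
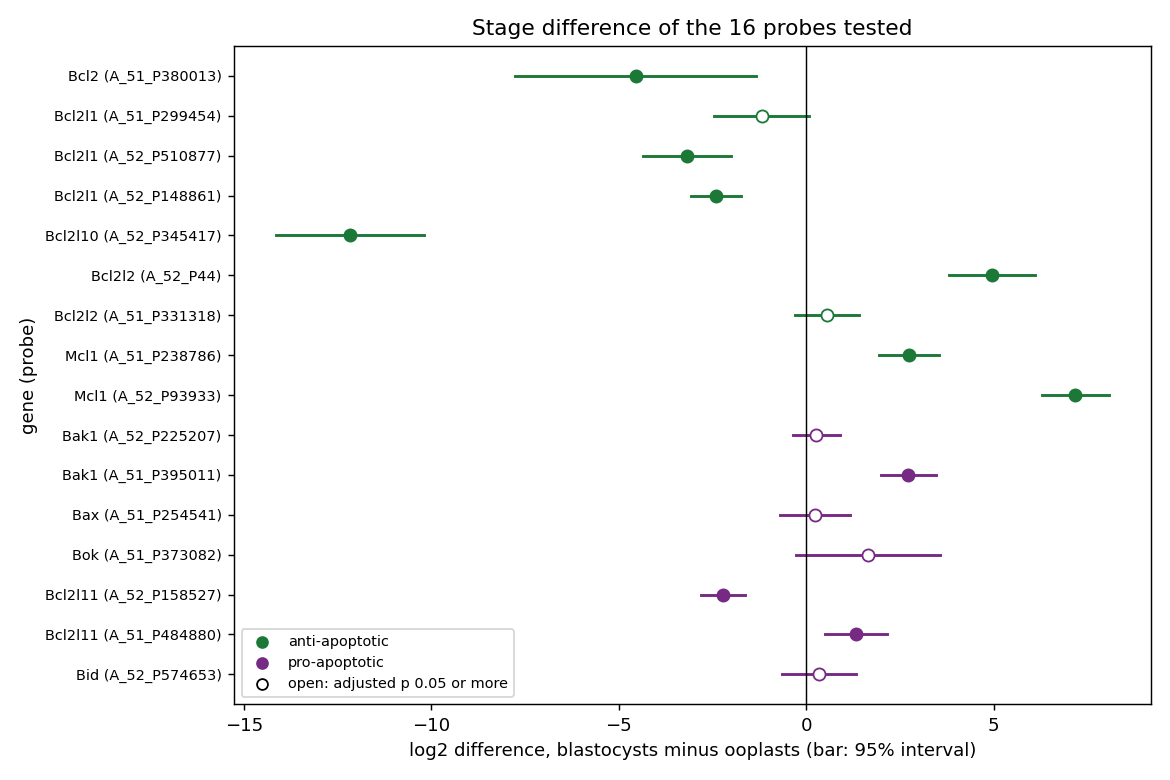
Log2 difference, blastocysts minus ooplasts, for the 16 tested probes, with 95% intervals from limma. Filled points are called at an adjusted p of 0.05, and green and purple separate anti-apoptotic from pro-apoptotic members. Points lie on both sides of 0 in both classes.

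Bcl2, the founding protector of the family, had 1 tested probe of 3. Probe A_51_P380013 (chr1:108539940-108539999), designed on transcript variant 2, read -1.80 and -1.54 in climacteric blastocysts and -1.18 and -1.20 in young blastocysts, against -0.43 in climacteric ooplasts and 6.66 in young ooplasts. The 4 blastocysts and the climacteric ooplasts lay between -1.80 and -0.43, and the young ooplast array stood apart. The stage difference was -4.55 ± 1.33 (SE; adjusted p = 0.0200). It was -1.24 (adjusted p = 0.0304) with the young ooplast array left out and -7.85 (adjusted p = 0.000230) with the climacteric one left out. The call was lost with slide as a block (-4.61, adjusted p = 0.0561) and within slide 1 (-4.61, adjusted p = 0.0501). The probe on transcript variant 1, printed 10 times (A_52_P534870, chr1:108365763-108365822), was above background on 1 climacteric blastocyst array (-3.87) and on no ooplast array. Its mean values elsewhere were -5.40 in the other climacteric blastocysts, -5.36 and -4.32 in young blastocysts, -2.49 in climacteric ooplasts and -2.92 in young ooplasts. The remaining probe (A_52_P438280) was not above background on any array.

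**Figure D3:**
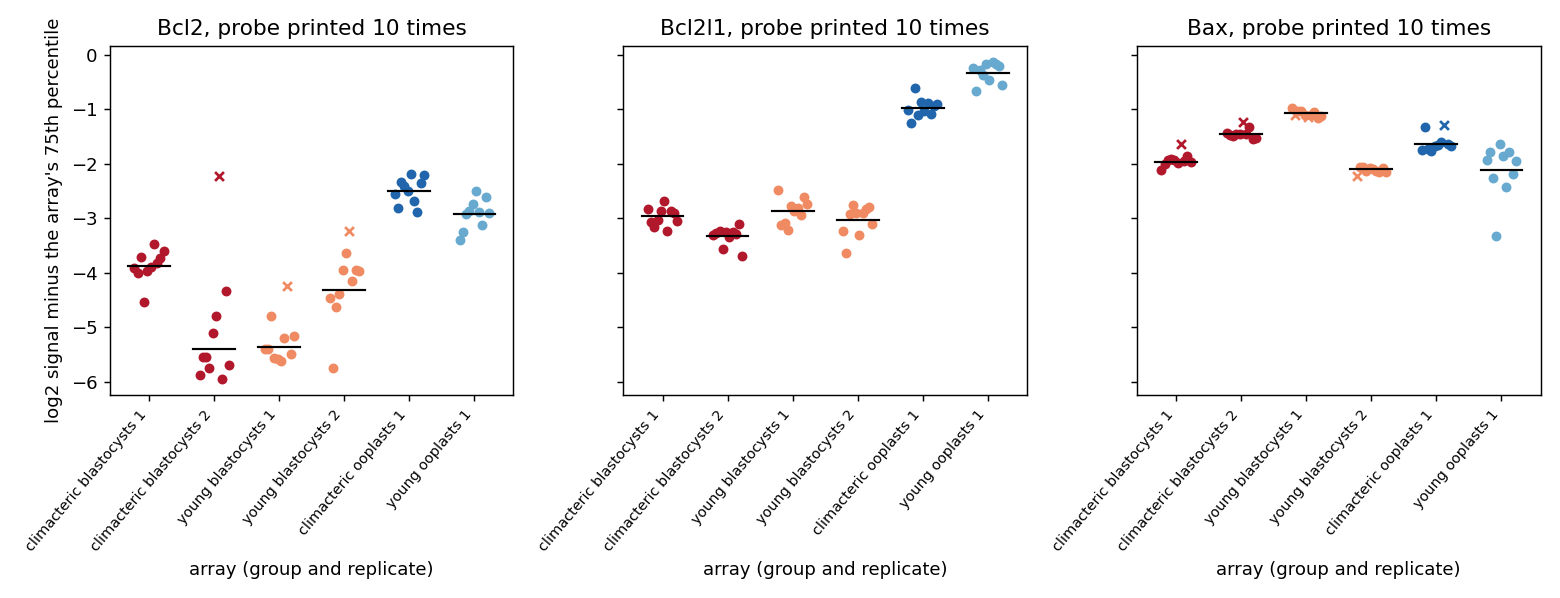
Log2 scaled signal of each of the 10 spots of the 3 repeated member probes, by array. Bars are means of unflagged spots and crosses are spots flagged as outliers. Ooplast arrays lie above blastocyst arrays for Bcl2l1, while Bax differs among blastocyst arrays by more than its spots do.

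Of the 4 effector probes, 1 of Bak1 was called higher and 3 were not called. The fitted differences were all above 0, but Bax was below 0 with normexp (-0.34). Bax and Bok were also below 0 when certain arrays were left out (-0.07 for Bax without young ooplasts). Bak1 on A_51_P395011 was above background on 0 ooplast arrays and Bax on 1. Both entered the test through the blastocysts, which favours a difference above 0. Bax, on a probe printed 10 times (chr7:45334141-45334296), averaged -1.96 and -1.46 in climacteric blastocysts and -1.07 and -2.10 in young blastocysts, against -1.64 in climacteric ooplasts and -2.11 in young ooplasts, where 5 of its 10 spots were above background. Within each blastocyst array its spots varied by an SD of 0.04 to 0.07, so the replicates differed by more than the spots did. The stage difference of 0.23 had an interval of -0.70 to 1.17 (adjusted p = 0.605). Bak1 on probe A_52_P225207 (chr17:26748876-26748935) read 0.81 and 0.84 in climacteric blastocysts and 0.74 and 0.85 in young blastocysts, against 0.79 in climacteric and 0.29 in young ooplasts. These values were close together, with a difference of 0.27 and an interval of -0.36 to 0.90.

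A second Bak1 probe (A_51_P395011, chr17:26747611-26747670) read -0.34 and -0.75 in climacteric blastocysts and -1.57 and -1.25 in young blastocysts, and was not well above background on the ooplast arrays (measured -3.61 and -3.79). On the main values its blastocyst mean was at least 2.24-fold higher, a bound that leaves out the spread. Its fitted difference against the measured signals was 2.72 (adjusted p = 0.000290) and became 0.74 with normexp (adjusted p = 0.0288).

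Bok, a Bax-like effector whose probe the files describe as the apoptosis activator Mtd (chr1:95526078-95526137), read 6.15 and 6.46 in climacteric blastocysts and 6.43 and 6.58 in young blastocysts, against 2.75 in climacteric ooplasts and 6.74 in young ooplasts. As for Bcl2, the ooplast arrays differed from each other, but here the climacteric ooplasts stood apart. The stage difference was 1.66 ± 0.79 (SE) and was not called (adjusted p = 0.101). With the young ooplast array left out it was 3.55 (adjusted p = 0.000908), and with the climacteric one left out it was -0.24 (adjusted p = 0.603). It was called with the authors' deposited values (1.90, adjusted p = 0.0336), with quantile normalization (1.87, adjusted p = 0.0361) and with normexp (1.94, adjusted p = 0.0465).

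The BH3-only genes differed by probe. Bid (chr6:120859065-120859124), which is cleaved by caspases to a form that activates Bax and Bak1, read -0.11 and -0.59 in climacteric blastocysts and -1.43 and -0.26 in young blastocysts, against -1.03 in climacteric and -0.87 in young ooplasts. The stages overlapped, and the difference of 0.35 had an interval of -0.64 to 1.34. Bcl2l11, the gene of Bim, had its brightest values on probe A_52_P158527 (chr2:127853756-127853815). That probe read 1.76 and 1.85 in climacteric blastocysts and 1.58 and 1.47 in young blastocysts, against 4.02 in climacteric and 3.76 in young ooplasts. On these scaled values all blastocysts lay below both ooplasts, and the difference was -2.23 ± 0.24 (SE), 4.69-fold lower in blastocysts (adjusted p = 0.000260). Before scaling, the probe read 3602 and 3069 units in climacteric blastocysts and 2153 and 3082 units in young blastocysts. It read 3869 units in climacteric and 3193 units in young ooplasts, so the unscaled stages overlapped and the difference depends on the scaling.

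A probe that spans a splice junction of Bcl2l11 (A_51_P484880, chr2:127838598-127849693 from its first to its last base) ran the other way. It read -1.21 and -0.83 in climacteric blastocysts and -0.49 and -1.39 in young blastocysts, and was not well above background in ooplasts (measured -2.21 and -2.39). On the main values its blastocyst mean was at least 2.24-fold higher, a bound that leaves out the spread. The fitted difference against the measured signals was 1.32 (limma adjusted p = 0.0122, interval 0.50 to 2.15). The call was lost in 5 of 16 other settings, among them normexp (0.25, adjusted p = 0.419) and leaving out the young ooplast array (1.19, adjusted p = 0.0866) or the climacteric one (1.45, adjusted p = 0.0522). The remaining probe (A_52_P348214) was above background on 3 blastocyst arrays only and was not tested by stage.

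Between climacteric and young blastocysts no member passed the test. Of 17 member probes tested, 0 were called by limma, as for all 21648 probes tested (0 called, 0% in either direction). At an unadjusted p under 0.05 there were 1213 probes (5.6%), 1 of them a member. The differences of the 17 ran from -0.62 to 0.86 on the log2 scale, 5 above and 12 below 0, with a median of -0.12 against 0.01 over all probes. With scaling on commonly detected probes, 9 lay above and 8 below 0. The groups did not overlap for 3 of the 17, against 30.7% of all probes, and these were Bcl2 (-0.49), Bcl2l11 on A_52_P158527 (0.28) and Bak1 on A_51_P395011.

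That Bak1 probe had the largest difference of the 17, 0.86 ± 0.33 (SE; unadjusted p = 0.0447, adjusted p = 0.881), with 1.23 within slide 1 and 0.50 within slide 2. The other Bak1 probe gave 0.03 with an interval of -0.70 to 0.76. For Mcl1 the first probe gave -0.25 (interval -1.29 to 0.79), and for Bok the difference was -0.20 (interval -0.97 to 0.58). For Bcl2l10 the interval was widest, -2.68 to 2.55, in a fit without slide as a term. Its difference was 0.06 within slide 1 and -0.19 within slide 2, and its SE was 0.31 with slide as a block, against 1.03. With 2 arrays a group, differences within these intervals were not resolved.

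**Figure D4:**
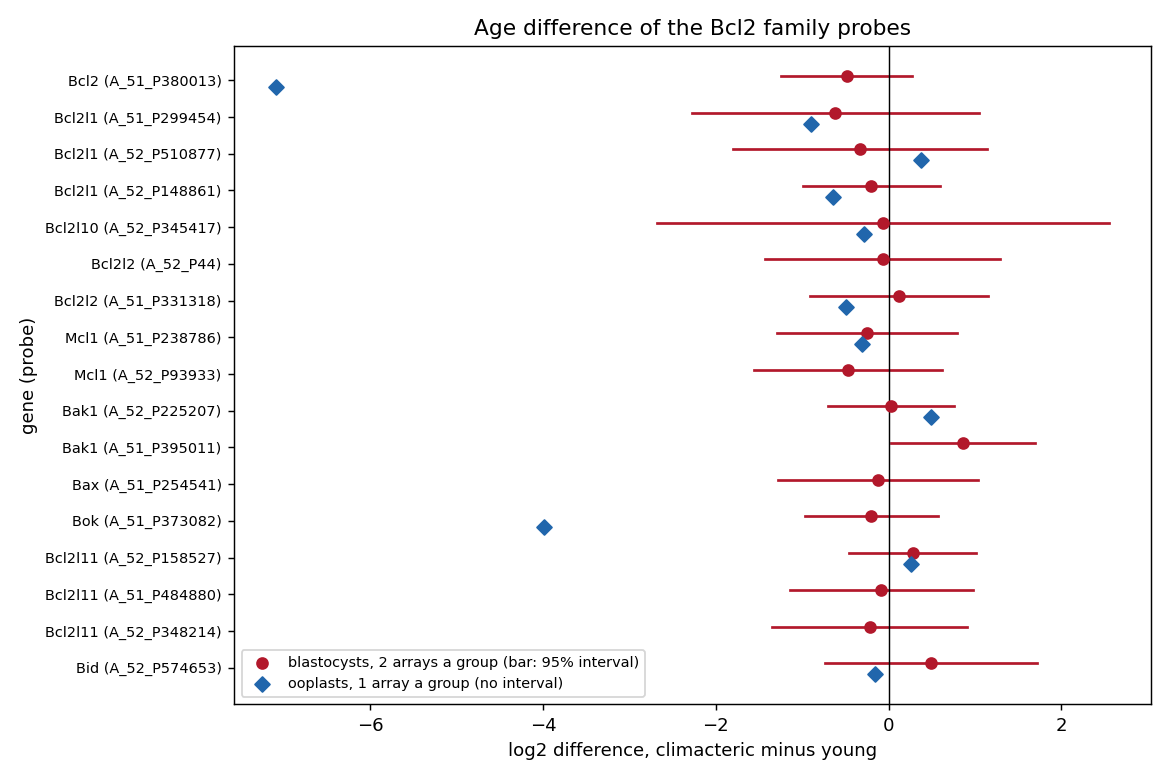
Log2 difference, climacteric minus young, for the 17 member probes tested in blastocysts (circles, with 95% intervals) and for the 11 measured on both ooplast arrays (diamonds, 1 array a group). The ooplast values of Bcl2 and Bok lie at -7.09 and -3.99, and the other diamonds lie within 1 unit of 0.

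Between climacteric and young ooplasts, with 1 array each and no test, Bcl2 and Bok were the members that stood apart. On signal, the Bcl2 spot of A_51_P380013 read 177 units in climacteric ooplasts and 23893 units in young ooplasts. It was 136.6-fold lower in the climacteric sample (log2 difference -7.09). The other Bcl2 probes were not above background on either ooplast array, with measured differences of 0.43 (A_52_P534870) and -0.09 (A_52_P438280). Bok read 1602 units in climacteric and 25218 units in young ooplasts and was 15.9-fold lower (-3.99). Neither spot carried an outlier flag, and the pixels of the bright Bcl2 spot had an SD of 16.4% of their mean. Of 11 member probes above background on both arrays, 2 were at least 2-fold lower in climacteric ooplasts and 0 higher, against 9.92% lower and 7.39% higher (17.3% together) of 15516 probes. With scaling on commonly detected probes the split over all probes was 1620 higher and 1272 lower, in place of 1146 higher and 1539 lower, with 0 members higher and 2 lower. The other 9 differed by less than 2-fold, except that Bcl2l1 on A_51_P299454 (-0.90) reached -1.01 with the authors' deposited values and with quantile normalization, making 3 members lower. The values included Bcl2l10 at -0.28, Mcl1 at -0.31 and Bcl2l11 at 0.26, and the median over all probes was 0.14.

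Large differences between the 2 ooplast arrays ran mostly in 1 direction over all probes. At least 16-fold apart were 289 probes lower and 3 higher in climacteric ooplasts, and at least 128-fold apart were 70 lower and 0 higher. Between climacteric and young blastocysts on 1 slide, or between replicates of 1 group, at most 65 probes were 16-fold apart in 1 direction, and 0 were 128-fold apart. Those 65 were lower in climacteric blastocysts on slide 2, where 0 were higher, and slide 1 gave 1 lower and 1 higher. A lower tail without an upper one was thus not particular to the ooplasts. Summed macrophage markers were 48.0 in climacteric ooplasts (9 of 13 genes above background, without Itgam, Ptprc, Laptm5 and C1qa) and 9.09 in young ooplasts (5 of 13). They were also 39.0 in climacteric blastocysts replicate 1, against 3.83 to 4.04 in the other blastocysts, and their part in these differences was not tested. Summed cumulus and granulosa markers were 80.3 in climacteric and 85.4 in young ooplasts. With 1 sample a group, age and any other difference between the 2 samples cannot be told apart.

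**Figure D5:**
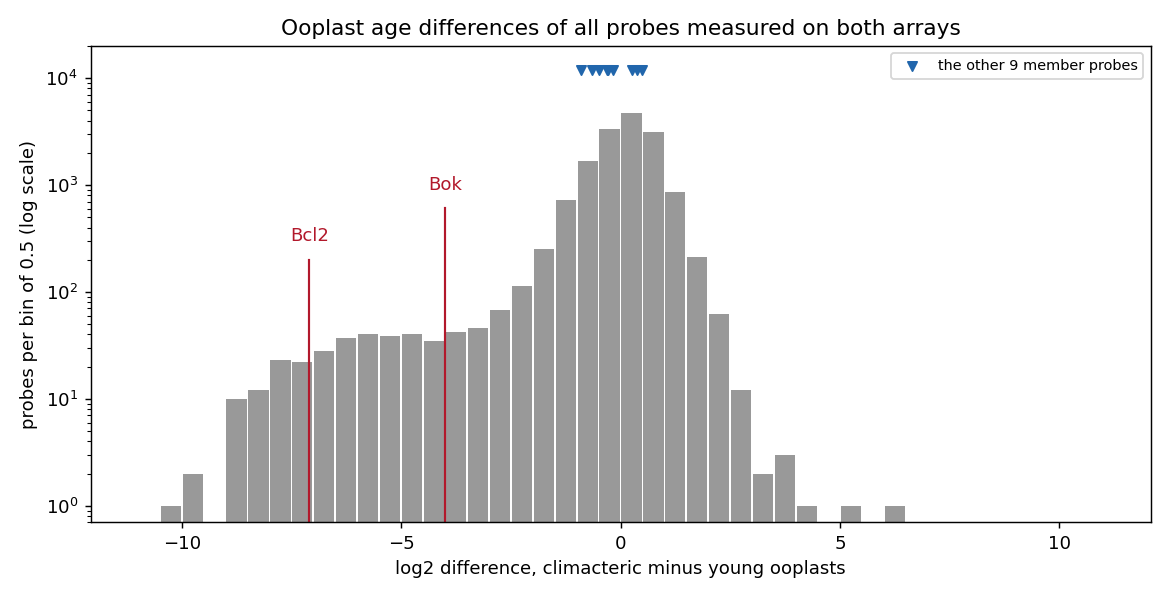
Number of probes (log axis) by log2 difference, climacteric minus young ooplasts, for the 15516 probes above background on both arrays, in bins of 0.5. Lines mark Bcl2 and Bok, which lie in the long lower tail, and triangles mark the other 9 member probes.

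Whether the age difference was unlike between the stages was tested with a product term. Its spread comes from the blastocyst arrays alone, since each ooplast group has 1 array and is taken to vary like them, so the p-values hold only under that assumption. Under it Bcl2 was the member called among 16 probes (6.61 ± 0.52 SE, age difference in blastocysts minus that in ooplasts, adjusted p = 0.0202), against 0.672% of 20982 probes. Of those 141 probes, 135 (0.643%) were called in this direction and 6 (0.0286%) in the other. At an unadjusted p under 0.05 there were 2 member probes, Bcl2 and Bok, against 7.84% of all probes. The Bcl2 call was lost with the authors' deposited values (6.01, adjusted p = 0.0642), with quantile normalization (6.03, adjusted p = 0.0647) and without replicate 1 (6.74, adjusted p = 0.0981) or replicate 2 (6.48, adjusted p = 0.0910) of the climacteric blastocysts. Bok had 3.79 ± 0.53 (SE; adjusted p = 0.0693, interval 2.46 to 5.13), and was called with normexp (3.71, adjusted p = 0.0178) and among probes above background on all arrays (adjusted p = 0.0258).

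Genes that act beside the members also differed by stage, given here for each gene on its brightest tested probe. Of 12 other Bcl2-related genes on the array, 9 were tested, with 5 higher and 2 lower in blastocysts (median 0.69). Bmf, among the 5, gave 0.99 on its brightest tested probe and -1.33 on its other tested probe. The BH3-only gene Pmaip1, which encodes the Mcl1 antagonist Noxa, was higher (4.14), as were Bcl2l14 (4.89) and the mitophagy receptor Bnip3 (1.52). Bcl2l14 was above background on 1 of 2 ooplast arrays, so its difference is partly against a signal below the background call. Bbc3, which encodes the p53 target Puma, was lower (-3.77), as was Bik (-2.18), which was above background on 1 of 4 blastocyst arrays only. Bbc3 averaged 3.38 in blastocysts (SD 1.32) and 7.14 in ooplasts (SD 1.29). Climacteric minus young, it differed by -2.07 in blastocysts (limma adjusted p = 0.647) and -1.83 in ooplasts (1 array each, no test).

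Of 13 genes of the apoptosome and caspases, 10 were tested, with 6 higher and 1 lower (median 1.16). Fadd, among the 6, gave 2.04 on its brightest tested probe and -0.18 on its other tested probe. Cytochrome c (Cycs, 2.29), which Bax and Bak1 pores release, and the executioner caspase Casp6 (4.70) were higher, and Cflar, an inhibitor of caspase-8, was lower (-1.51). Of 11 inhibitors of apoptosis and their antagonists, 9 were tested, with 3 higher and 4 lower (median -0.29). The antagonist Diablo was at least 24.8-fold and the caspase inhibitor Xiap at least 2.43-fold higher in blastocysts, and Septin4, above background on 1 of 2 ooplast arrays, was higher (3.21). Birc3 (-6.41), Naip5 (-3.12) and Naip1 (-2.23) were lower. Naip1 and Naip5 are paralogs, and their probes averaged -1.35 and 7.97 in ooplasts. Whether the probes share transcripts was not tested.

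All 14 listed regulators of the family were tested, with 5 higher and 7 lower (median -0.83). The chaperone partners Bag3 (5.49) and Bag1 (2.72) and the Mcl1-binding protein Tpt1 (2.71) were higher. Bag3 and Bag1 were above background on 1 of 2 ooplast arrays, with ooplast SDs of 3.18 and 1.41, and the other tested Bag3 probe gave 0.18. Trp63, the guardian of the oocyte's genome that acts through Bbc3 and Pmaip1, was at least 51.0-fold lower in blastocysts, and the FOXO factors Foxo1 (-5.36) and Foxo3 (-2.68) were also lower. These shares stand against 35.6% higher and 38.2% lower over all probes. By age in blastocysts 0 genes were called in any of the 4 lists.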

How the data were processed

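RNA of 6 samples was read on 1 array each. Per the labels' protocols, RNA was column-purified, amplified and labelled with Cy3. The authors read spot intensity with version 9.5 of Agilent Feature Extraction, as the submitters' processing notes state. The deposited processed signal is, per the file headers, intensity after spatial detrending and background subtraction, not scaled between arrays, and probe coordinates are on mm8. The value table deposited by the authors is on the log2 scale and matched a quantile normalization of the processed signal within 5e-07 (rank correlation 1 with each array, column medians 6.36 to 6.40), so scale, centring and direction of this table are settled. No genome of this build was used, and no exon or UTR position is stated.

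Values were log2 of processed signal, less the 75th percentile of the 43379 non-control spots of that array. Outlier-flagged spots were left out unless all of a probe's spots were flagged, and repeated spots were averaged. Different probes of a gene were kept apart. Member names were matched to the files' gene names, and all 10 are in the RefSeq table used. A probe was tested if 1 or more of the compared groups had it above background throughout. Bounds set the group below background at the lowest signal well above background on each array, or its own signal if higher. They compare group means on the main values and leave out the spread. For the members given as bounds, the fitted difference with normexp was smaller than the bound. Tests used limma 3.58.1 in R 4.3.3 (lmFit, eBayes, two-sided, Benjamini-Hochberg over all tested probes, threshold 0.05), first tested on simulated data. The few arrays limit the precision. The ooplast comparison has 1 array a group and no test.

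Alternatives were quantile normalization, the authors' values, scaling on commonly detected probes, normexp (offset 50), no filter, a filter on all arrays, 1 probe per gene, no age term, each age alone, slide as a block, within slide and leaving out each array. The named genes were all members, up to 3 genes a direction from each of 4 pathway lists by stage difference, and the 5 profiles nearest to the members with the largest rise and fall. Of these, 1 gene is not reported here. The members and lists were chosen with earlier results of these data known. Replicate numbers of the blastocysts coincide with the slides. Replicate 1 minus replicate 2 correlated over probes at 0.14 between climacteric and young blastocysts, so the numbers are not taken to pair the samples.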

Additional observations from a re-analysis of the deposited data

Results flagged for a closer look

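The age difference of Bcl2 on probe A_51_P380013 stood further apart between the stages than the blastocyst spread. The age difference in blastocysts (-0.49, climacteric minus young) minus that in ooplasts (-7.09) was 6.61 on the log2 scale (limma adjusted p = 0.0202 for the product term). Each ooplast group has 1 array, so this p assumes that ooplasts vary like blastocysts, and the value rests on 1 array of each age (-0.43 in climacteric and 6.66 in young ooplasts). The call was lost with the authors' deposited values (adjusted p = 0.0642), with quantile normalization (0.0647) and without climacteric blastocyst replicate 1 (0.0981) or 2 (0.0910). The other Bcl2 probes were not above background on either ooplast array and showed no such difference (measured 0.43 and -0.09, climacteric minus young). The cause was not tested.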

How the results depend on the processing

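No member reversed a called direction. The Bcl2l10, Mcl1, Bak1 (A_51_P395011), Bcl2l2 (A_52_P44), both called Bcl2l1 and the lower Bcl2l11 stage calls were kept in every alternative run (16 to 18 each). Each of these runs put the arrays on a common scale, so none shows how far a call depends on scaling itself. Counts that moved by over 1.5 times were these. For stage, against 15474 calls (48.2% higher), no filter gave 29232 (26.1% higher) and only probes above background on all arrays gave 9781 (38.7% higher). Among members, against 5 higher and 5 lower, the all-array filter left 1 higher, and 1 probe per gene gave 2 higher and 3 lower. Scaling on commonly detected probes moved the median of all probes by -0.22 and quantile normalization by 0.12. For age in ooplasts, against 2685 probes, no filter gave 6972 and normexp 1608. For stage by age, against 141 probes, the authors' values and quantile normalization gave 0, no filter 49 and normexp 222. Leaving out 1 blastocyst array gave 0 to 108, with 0 without either climacteric array, 57 without young replicate 1 and 108 without young replicate 2. Of members, against 1, the authors' values and quantile normalization called 0, and normexp and the all-array filter 2 (Bcl2 and Bok), with 0 to 1 on leaving out an array. With slide as a replicate block, 14294 probes passed by stage and 0 by age in blastocysts, and Bcl2 was the only member to lose its stage call. The cause of these shifts was not tested. With 2 and 1 arrays a group, small differences were not resolved, and probes below background in ooplasts give bounds only.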
